A study of Mus musculus with 12 samples.

Results

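The genes described here encode the ion channels that set the electrical rhythm and excitability of cells: potassium channels (symbols starting Kcn), voltage-gated sodium channels (Scn and a digit), voltage-gated calcium channels (Cacna, Cacnb and Cacng) and pacemaker channels (Hcn). They were taken in by a symbol rule that uses no measured value, and 116 of the 26989 genes measured met the rule. The rule itself was chosen with earlier results of these data known. Antisense and pseudogene symbols were left out, and 1 further gene, Cacng8, was left out because its probe set also carries another symbol. The 116 comprise 32 pore subunits of voltage-gated potassium channels, 14 inward rectifiers, 10 two-pore potassium channels, 7 potassium channels gated by calcium or sodium, 15 potassium accessory subunits, 8 sodium pore subunits, 3 sodium beta subunits, 9 calcium pore subunits, 14 calcium accessory subunits and 3 pacemaker channels. The remaining one, Kcnq1ot1, meets the symbol rule but is a non-coding RNA that overlaps Kcnq1 and forms no channel.

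The arrays measured heart RNA from male C57BL/6J mice aged 10 weeks, wild type or lacking ADAM12, a membrane-anchored metalloprotease. Each mouse had undergone a sham operation or transverse aortic constriction (TAC), a narrowing of the aorta that overloads the left ventricle, and hearts were taken 2 weeks after surgery. There were 4 groups of 3 biological replicates: wild type sham, wild type TAC, knockout sham and knockout TAC. The labels give neither the knockout allele nor the part of the heart taken, and the probe set that carries Adam12 also carries another symbol, so no Adam12 value was used to check the genotypes.

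In a heart muscle cell, sodium channels start the action potential, calcium channels hold it and trigger contraction, and several potassium currents end it. The transient outward channels (Kcnd2, Kcnd3) act early in repolarization, the delayed rectifiers (Kcnh2, Kcnq1, Kcna5) later, and the inward rectifiers Kcnj2 and Kcnj12 hold the resting potential. Kcnj3 and Kcnj5 form the acetylcholine-gated channel of atrial and nodal cells, Kcnj11 the ATP-sensitive channel, and Hcn channels the pacemaker current. Reduced potassium currents are a well-known feature of hypertrophied and failing hearts.

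The values are the deposited log2 signals, 1 probe set per gene, on which a difference of 1 is a 2-fold change. The 12 arrays had medians between 4.93 and 5.10, and their number, not a read depth, limits the precision. Of the channel genes, 44 (37.9%) had a mean above the median of all genes (5.41), and 36 had a mean above 5.78, the 95th percentile of the 23 background probe sets, as did 44.9% of all genes. Heart muscle markers averaged 16.76 to 16.81 in wild type sham hearts and 16.74 to 16.78 in wild type TAC hearts. In knockout hearts they averaged 16.82 to 16.87 after sham and 16.59 to 16.71 after TAC, below all other hearts. Of 50 heart channels listed for naming, 40 were measured, and 10 were not analysed here. The range over the 12 arrays was under 0.5 for 65 channel genes, above 1 for 16 and above 2 for 2, Kcnj3 and Kcnd2.

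The RefSeq promoter table (GRCm38.p6) held 90 of the 116 genes by symbol. The 250 bases upstream of the start are printed for 5 genes whose levels moved most after TAC in knockout hearts, 4 of them lower (Kcnd2, Kcnj3, Kcnj5 and Kcnj2) and 1 higher (Kcne4). They are read 5′ to 3′ on the gene's strand, and capitals mark each GC box, the letters GGGCGG found on either strand. Their positions are chr6:21215096-21215345 on the plus strand for Kcnd2, chr2:55435720-55435969 (plus) for Kcnj3, chr9:32344345-32344594 (minus) for Kcnj5, chr11:111065914-111066163 (plus) for Kcnj2 and chr1:78816661-78816910 (plus) for Kcne4.
Kcnd2: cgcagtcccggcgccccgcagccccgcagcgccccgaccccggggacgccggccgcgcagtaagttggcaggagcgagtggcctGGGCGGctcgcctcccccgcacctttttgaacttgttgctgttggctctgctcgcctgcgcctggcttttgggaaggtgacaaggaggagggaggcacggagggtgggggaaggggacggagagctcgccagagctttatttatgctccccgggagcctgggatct
Kcnj3: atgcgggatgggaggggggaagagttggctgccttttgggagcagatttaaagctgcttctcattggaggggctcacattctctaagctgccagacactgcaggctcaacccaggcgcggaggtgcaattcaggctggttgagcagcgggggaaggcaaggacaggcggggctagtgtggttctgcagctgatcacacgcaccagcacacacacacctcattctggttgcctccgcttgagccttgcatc
Kcnj5: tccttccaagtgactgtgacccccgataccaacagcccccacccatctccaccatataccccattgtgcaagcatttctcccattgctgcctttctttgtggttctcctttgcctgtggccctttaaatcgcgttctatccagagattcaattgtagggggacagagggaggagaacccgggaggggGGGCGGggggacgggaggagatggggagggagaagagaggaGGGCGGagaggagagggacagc
Kcnj2: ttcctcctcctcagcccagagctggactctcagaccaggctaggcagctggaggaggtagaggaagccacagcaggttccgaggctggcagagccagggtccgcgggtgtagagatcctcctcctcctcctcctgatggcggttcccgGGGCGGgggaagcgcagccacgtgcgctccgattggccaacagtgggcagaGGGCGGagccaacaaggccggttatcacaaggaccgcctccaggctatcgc
Kcne4: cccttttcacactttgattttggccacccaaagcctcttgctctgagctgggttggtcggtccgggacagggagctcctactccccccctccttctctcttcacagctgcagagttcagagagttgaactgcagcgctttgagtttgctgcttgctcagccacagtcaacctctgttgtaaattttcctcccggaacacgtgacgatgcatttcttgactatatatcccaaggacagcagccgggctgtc
The Kcnj5 and Kcnj2 windows held 2 GC boxes each, Kcnd2 1, and Kcnj3 and Kcne4 none, so genes that fell had windows with and without the box. Over all genes 32.7% of 32851 windows of this length held a GC box, against 41.5% of the 123 windows of channel genes. The share was 57.1% of the 14 windows of genes that fell in knockout hearts and 62.5% of the 8 windows of genes that rose, and the median GC content was 52.4% over all windows, 58.0% over the channel genes' windows, 63.2% over those of genes that fell and 58.4% over those of genes that rose. A match describes the letters and shows no bound factor.

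After TAC in knockout hearts, 24 of the 116 channel genes changed (limma, adjusted p under 0.05 over all genes), 16 lower and 8 higher. These are 20.7% of the channel genes, where 12.8% of all genes were called (7.08% higher and 5.68% lower). The counts by family below come from short lists and are to be read beside these shares. The genes that fell include the pores of the transient outward current (Kcnd2, Kcnd3), of the delayed rectifier (Kcnh2, Kcnq1), and of the resting, acetylcholine-gated and ATP-sensitive inward rectifiers (Kcnj2, Kcnj3, Kcnj5, Kcnj11). The genes that rose most were Kcne4, a potassium accessory subunit, and Kcnma1, the large-conductance calcium-activated potassium channel. In bulk hearts, fewer cells of a type and less RNA per cell cannot be told apart. Of the 44 channel genes above the median level 43.2% were called, against 23.2% of all genes above it, and of the 72 below it 6.94% were called, against 2.35% of all genes below it. The median difference was -0.07 over the channel genes and -0.03 over all genes. Sham and TAC values did not overlap for 29 channel genes that were lower and 13 that were higher, together 36.2% of the list, against 32.3% of all genes (16.9% lower and 15.4% higher); all 24 called genes are among these 42. Leaving out a single heart reduced the count of called channel genes to 14 (knockout sham 1), 13 (knockout sham 3) or 14 (knockout TAC 2). The shares of all genes called without these hearts are not given here.

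**Figure D1:**
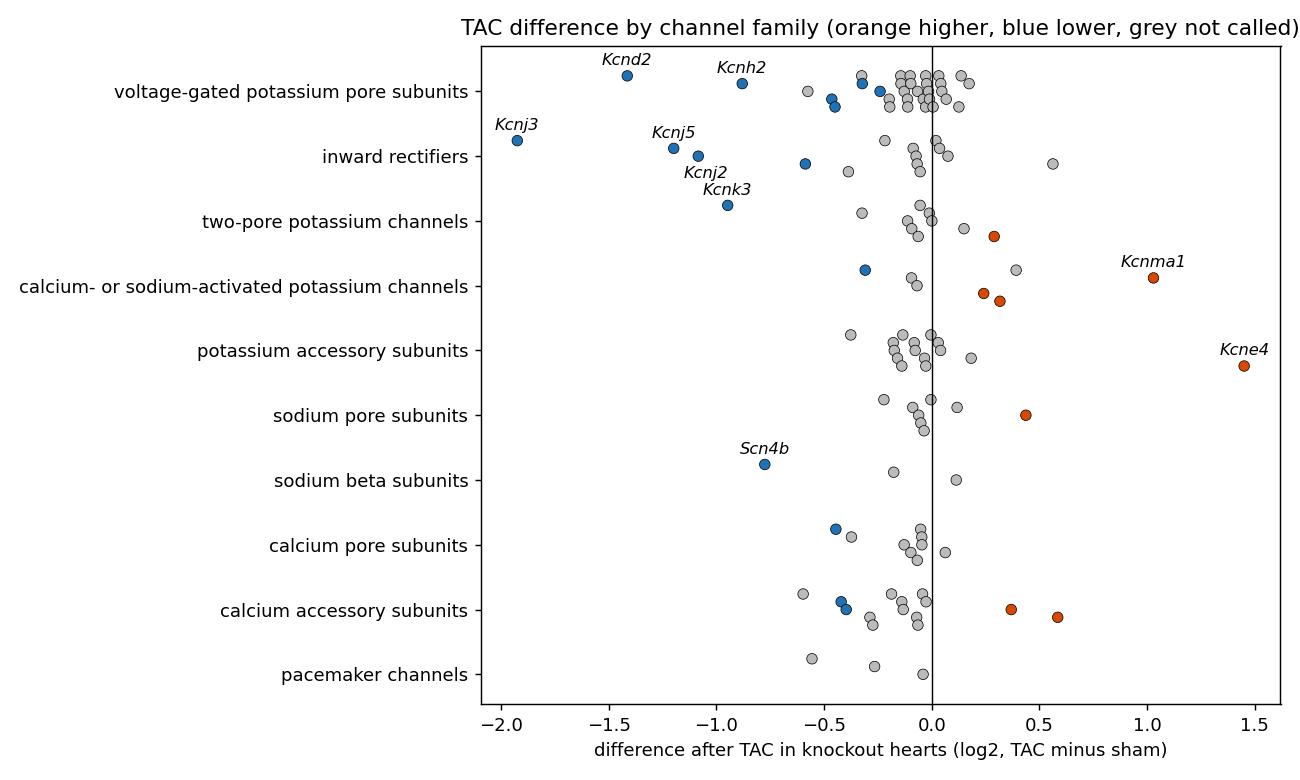
Difference after TAC in knockout hearts (log2, TAC minus sham, 3 hearts each) for the 115 channel subunit genes, 1 point per gene, by family; orange and blue mark genes called higher and lower by limma. Kcnj3 lies furthest to the left at -1.92 and Kcne4 furthest to the right at 1.45, and no pore subunit of the voltage-gated potassium or inward rectifier families is marked higher.

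Among the 32 pore subunits of voltage-gated potassium channels, 6 fell in knockout hearts after TAC and none rose. Over all genes 5.68% fell and 7.08% rose there. Kcnd2, the main pore of the fast transient outward current, was 11.61, 11.29 and 11.33 in knockout hearts after sham and 10.48, 9.56 and 9.94 after TAC. The wild type values were 11.49, 11.31 and 11.62 after sham and 11.13, 9.92 and 10.81 after TAC. All 6 TAC hearts were below all 6 sham hearts, and wild type TAC heart 2 lay among the knockout TAC hearts. The difference was -1.41 ± 0.28 (SE) in knockout hearts (limma adjusted p = 0.00715), a level 0.375 times that of sham, and -0.85 ± 0.28 in wild type hearts (adjusted p = 0.248). Its relative Kcnd3 was 7.25, 7.13 and 7.26 in knockout hearts after sham and 6.69, 6.82 and 6.73 after TAC, with no overlap. The differences were -0.46 ± 0.09 (adjusted p = 0.0067) in knockout and -0.31 ± 0.09 (adjusted p = 0.193) in wild type hearts.

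Kcnh2, the pore of the rapid delayed rectifier, was 8.36, 8.56 and 8.24 in knockout hearts after sham and 7.65, 7.47 and 7.40 after TAC. In wild type hearts it was 8.07, 7.90 and 7.84 after sham and 7.78, 7.29 and 7.97 after TAC. The knockout sham hearts were the 3 highest of all 12, so the fall of 0.88 ± 0.16 in the knockout (limma adjusted p = 0.00347) started from a higher level than the wild type difference of -0.25 ± 0.16 (adjusted p = 0.553). Kcnq1, the pore of the slow delayed rectifier, had means of 8.56 and 8.24 in knockout sham and TAC hearts (-0.32 ± 0.09, adjusted p = 0.0462). Leaving out wild type sham 2, wild type TAC 1, knockout sham 1 or 2, or any 1 knockout TAC heart ended that call, with adjusted p up to 0.172 (without knockout TAC 2). In wild type hearts Kcnq1 differed by -0.15 ± 0.09 (limma adjusted p = 0.573). Its knockout values differed from wild type by 0.21 ± 0.09 after sham and by 0.03 ± 0.09 after TAC, and neither was called. Kcna5, which carries an ultrarapid current in the mouse heart, stayed between 10.60 and 11.01 on all 12 arrays, with differences of 0.05 ± 0.10 in knockout and -0.04 ± 0.10 in wild type hearts.

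Kcna1 and Kcna2, pores better known from nerve, were the channel genes nearest the threshold in wild type hearts. Kcna1 was 6.91, 6.62 and 6.56 in wild type sham hearts, 6.02, 5.92 and 5.51 in wild type TAC hearts, 6.43, 6.54 and 6.23 in knockout hearts after sham and 6.26, 5.64 and 5.57 after TAC. Wild type sham and TAC hearts were fully apart, while knockout TAC heart 1 lay within the knockout sham values. The differences were -0.88 ± 0.19 in wild type (limma adjusted p = 0.0906) and -0.58 ± 0.19 in knockout hearts (adjusted p = 0.0725). Averaged over both genotypes, the Kcna1 difference was -0.73 ± 0.13 and passed the threshold (adjusted p = 0.00406). Kcna2 differed by -0.59 ± 0.13 in wild type (adjusted p = 0.103) and fell by 0.45 ± 0.13 in knockout hearts (adjusted p = 0.0484), a call lost when wild type sham 1 or 3, wild type TAC 2, any 1 knockout sham heart, or knockout TAC 2 or 3 was left out, with adjusted p up to 0.181 (without knockout TAC 2). Kcnh5, a dim member near 4, completes the 6 (-0.24 ± 0.07, adjusted p = 0.042), and its call was lost after quantile normalization (adjusted p = 0.142).

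Of the 14 inward rectifiers, 4 fell and none rose, where 5.68% of all genes fell and 7.08% rose. Kcnj3, which with Kcnj5 forms the acetylcholine-gated channel, was 12.84, 13.89 and 12.68 in knockout hearts after sham and 11.92, 10.71 and 11.00 after TAC. The wild type values were 13.49, 13.01 and 12.66 after sham and 12.10, 11.44 and 12.39 after TAC. Every TAC heart of either genotype was below every sham heart. The difference was -1.92 ± 0.39 in knockout (limma adjusted p = 0.00715), the largest fall of the 116 genes and a level 0.263 times that of sham, and -1.07 ± 0.39 in wild type hearts (adjusted p = 0.282). Its partner Kcnj5 was 9.22, 9.89 and 9.14 in knockout hearts after sham, 8.59, 7.94 and 8.14 after TAC, 9.46, 9.39 and 8.94 in wild type sham hearts and 9.02, 8.60 and 8.62 in wild type TAC hearts. The knockout TAC hearts were the 3 lowest. Kcnj5 fell by 1.20 ± 0.23 in knockout hearts (limma adjusted p = 0.00529) and differed by -0.52 ± 0.23 in wild type hearts (adjusted p = 0.387).

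Kcnj2, the main pore of the resting potassium current, was 10.27, 9.87 and 10.39 in knockout hearts after sham and 8.98, 9.10 and 9.20 after TAC. In wild type TAC hearts it was 10.40, 9.13 and 9.65, so heart 1 was at the sham level (10.15, 10.42 and 10.33) and heart 2 at that of the knockout TAC hearts. The knockout difference was -1.08 ± 0.25 (limma adjusted p = 0.0149). Without 1 of 4 hearts (knockout sham 1 or 3, knockout TAC 1 or 2) the adjusted p was 0.0508 to 0.0657. Kcnj12, a relative of Kcnj2, differed by -0.39 ± 0.14 (adjusted p = 0.0934) and was not called there. It passed without wild type TAC 2 (adjusted p = 0.0426) and at the alternative threshold of an adjusted p under 0.1. The mean over both genotypes was called (-0.32 ± 0.10, adjusted p = 0.0485).

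Kcnj11, the pore of the ATP-sensitive channel, was 8.55, 8.73 and 8.77 in knockout hearts after sham, 8.02, 8.08 and 8.19 after TAC, 8.30, 8.35 and 8.39 in wild type sham hearts and 8.66, 8.24 and 8.42 in wild type TAC hearts. The knockout TAC hearts were the 3 lowest of 12, and wild type hearts overlapped between surgeries. It fell by 0.59 ± 0.10 in knockout hearts (limma adjusted p = 0.00354) and differed by 0.09 ± 0.10 in wild type hearts (adjusted p = 0.783). Both sulphonylurea receptors, the regulatory partners of this pore, fell as well: Abcc9 by 0.97 ± 0.13 (limma adjusted p = 0.000893) and Abcc8 by 0.53 ± 0.13 (adjusted p = 0.0168) in knockout hearts. The call of Abcc8 was lost without knockout sham 2, knockout TAC 2 or knockout TAC 3 (adjusted p up to 0.0622). Its means were 8.79 and 8.27 in knockout sham and TAC hearts and 8.39 and 8.33 in wild type sham and TAC hearts. Knockout sham heart 2 held its highest value (9.06). Kcnj8, the other ATP-sensitive pore, differed by 0.04 ± 0.15 in the knockout. Kcnj15, an inward rectifier best known from kidney, differed by 0.56 ± 0.17 (adjusted p = 0.0553).

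**Figure D2:**
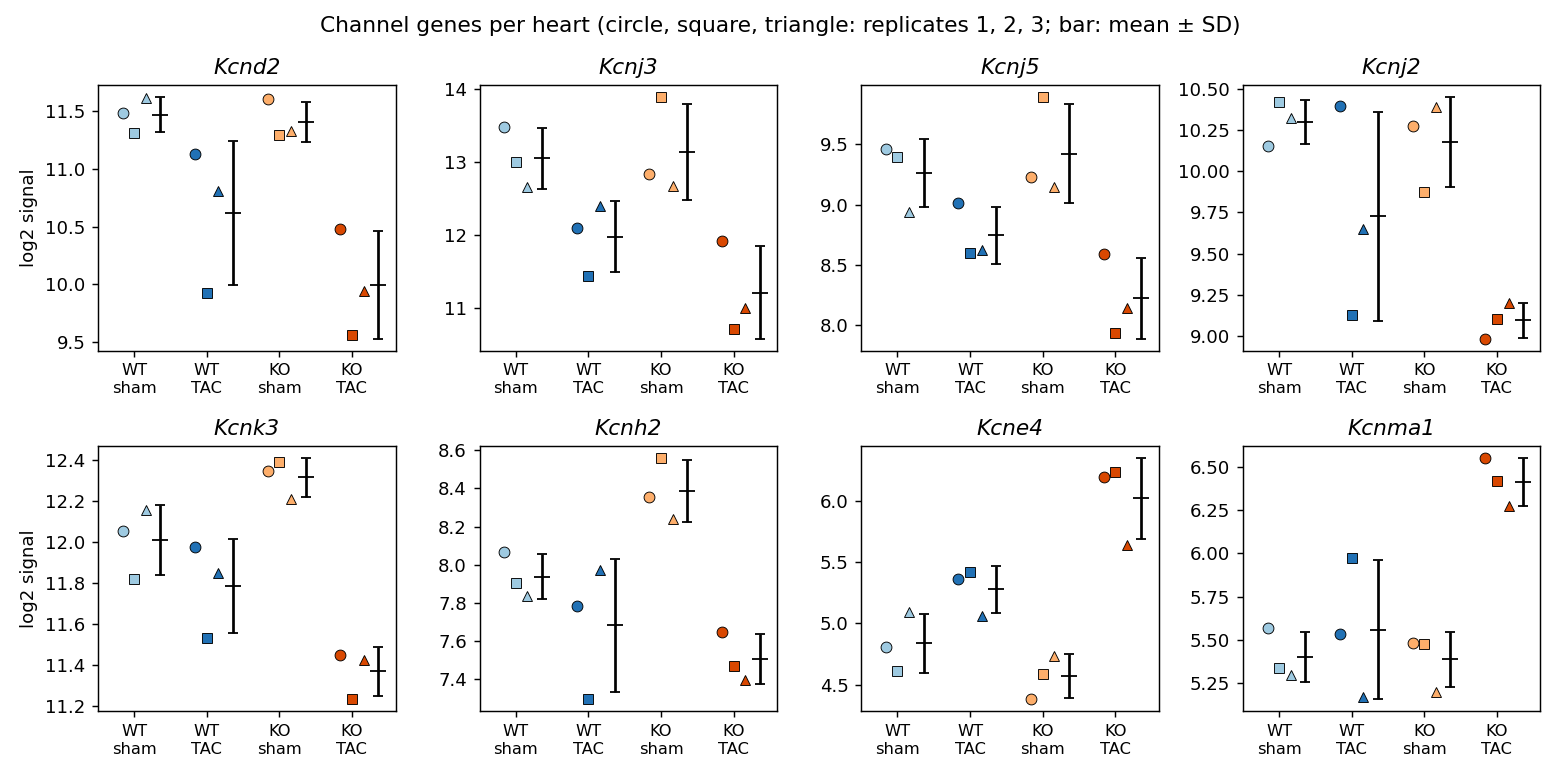
Log2 signal of 8 channel genes in each heart, by group (WT wild type, KO knockout); circle, square and triangle are replicates 1, 2 and 3, and the bar is the group mean with its SD (n = 3). In all 8 panels the knockout TAC hearts lie apart from the knockout sham hearts, and in wild type TAC hearts replicate 2 is the lowest for the 6 genes that fell and the highest for Kcne4 and Kcnma1.

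Of the 10 two-pore channels, which carry background potassium current, 1 fell and 1 rose, where 12.8% of all genes were called. Kcnk3, an acid-sensitive channel of heart muscle, was 12.35, 12.39 and 12.21 in knockout hearts after sham and 11.45, 11.23 and 11.43 after TAC. The wild type values were 12.06, 11.82 and 12.16 after sham and 11.98, 11.54 and 11.85 after TAC. The knockout held both the 3 highest values (sham) and the 3 lowest (TAC). Kcnk3 fell by 0.95 ± 0.12 in knockout hearts (limma adjusted p = 0.000712), and the wild type difference was -0.22 ± 0.12 (adjusted p = 0.502). Kcnk6 rose by 0.29 ± 0.09 (adjusted p = 0.0492), the called gene nearest the threshold, and lost its call when wild type sham 3, knockout TAC 1 or 3, or any 1 wild type TAC or knockout sham heart was left out, with adjusted p up to 0.16 (without knockout sham 1). The nearest gene outside was the sodium-activated Kcnt2 (0.39 ± 0.12, adjusted p = 0.0505).

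Of the 7 potassium channels gated by calcium or sodium, 3 rose and 1 fell, where 12.8% of all genes were called. Kcnma1, the large-conductance channel abundant in smooth muscle, was 5.48, 5.48 and 5.20 in knockout hearts after sham and 6.55, 6.42 and 6.27 after TAC. In wild type hearts it was 5.57, 5.34 and 5.29 after sham and 5.54, 5.97 and 5.17 after TAC. The knockout TAC hearts were the 3 highest of 12, and wild type sham and TAC hearts overlapped. All 6 sham values are below 5.78, the 95th percentile of the background probe sets, so no fold is given. The difference was 1.03 ± 0.17 (limma adjusted p = 0.00262) in knockout hearts and 0.16 ± 0.17 (adjusted p = 0.775) in wild type hearts. Its smooth muscle beta subunit Kcnmb1 differed by 0.18 ± 0.21 in the knockout (adjusted p = 0.677).

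The small- and intermediate-conductance channels moved less. Kcnn3 rose by 0.32 ± 0.09 (limma adjusted p = 0.0385), Kcnn4, the intermediate-conductance channel, by 0.24 ± 0.06 (adjusted p = 0.0251) and Kcnn1 fell by 0.31 ± 0.07 (adjusted p = 0.0105) in knockout hearts after TAC. Kcnn1 was 6.26, 6.18 and 6.21 in knockout hearts after sham and 5.89, 5.94 and 5.89 after TAC. Its wild type values, 6.01 to 6.12 after sham and 6.09 to 6.23 after TAC, all lay above those of the knockout TAC hearts. The call of Kcnn3 was lost when any 1 sham heart of either genotype, or knockout TAC 1 or 2, was left out, with adjusted p up to 0.156 (without knockout TAC 2). That of Kcnn4 was lost without knockout sham 1 or 3 or any 1 knockout TAC heart, with adjusted p up to 0.0956 (without knockout sham 3), while that of Kcnn1 held without each heart in turn.

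Kcne4, an accessory subunit that inhibits Kcnq1 channels, was the only one of 15 potassium accessory subunits to be called in knockout hearts. Over all genes 12.8% were called there. Kcne4 is the gene described first. It was 4.38, 4.59 and 4.74 in knockout hearts after sham and 6.19, 6.23 and 5.64 after TAC. In wild type hearts it was 4.80, 4.61 and 5.09 after sham and 5.36, 5.42 and 5.06 after TAC. The knockout TAC hearts were the 3 highest, and in wild type hearts TAC heart 3 lay within the sham range. The rise was 1.45 ± 0.18 (limma adjusted p = 0.000565) in knockout hearts, and the wild type difference was 0.44 ± 0.18 (adjusted p = 0.335). All 6 sham values are below 5.78, the 95th percentile of the background probe sets, so no fold is given. Of the other called genes, Scn4b, Kcnn4, Cacng6 and Kcnh5 lay below that level in every knockout heart. The comparison averaged over both genotypes added Kcnip3, a calcium-binding partner of Kcnd channels (-0.32 ± 0.10, adjusted p = 0.0456).

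Of the 8 sodium pore subunits 1 rose, and of the 3 beta subunits 1 fell, where 7.08% of all genes rose and 5.68% fell. Scn7a, an atypical sodium channel not gated by voltage, was 11.64, 11.60 and 11.30 in knockout hearts after sham and 12.16, 11.89 and 11.80 after TAC. The wild type values were 11.80, 11.83 and 11.71 after sham and 11.66, 11.71 and 11.49 after TAC. The knockout TAC values lay above all knockout sham and wild type TAC values but overlapped wild type sham. The differences were 0.44 ± 0.12 (limma adjusted p = 0.0291) in knockout and -0.16 ± 0.12 (adjusted p = 0.623) in wild type hearts, and the call was lost without knockout sham 3, knockout TAC 1 or knockout TAC 2, with adjusted p up to 0.118 (without knockout sham 3). Scn4b, the beta subunit linked to resurgent sodium current, was 5.66, 5.61 and 5.66 in knockout hearts after sham and 4.70, 4.83 and 5.08 after TAC. Those TAC values were the 3 lowest of 12, since wild type hearts held 5.23 to 5.99. The fall was 0.78 ± 0.16 (limma adjusted p = 0.00896), against a wild type difference of -0.18 ± 0.16 (adjusted p = 0.706). Of the other heart sodium channel genes, Scn10a differed by -0.22 ± 0.11, Scn2b by -0.18 ± 0.11 and Scn3b by 0.11 ± 0.06 in knockout hearts, and none was called.

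Of the 9 calcium pore subunits, 1 fell and none rose, where 12.8% of all genes were called in knockout hearts. Cacna1c, the L-type pore of heart muscle, was 14.36, 14.12 and 14.37 in knockout hearts after sham and 14.02, 13.64 and 14.08 after TAC. These did not overlap, and the difference was -0.37 ± 0.12 (limma adjusted p = 0.0754), with -0.19 ± 0.12 in wild type hearts (adjusted p = 0.572). The only calcium pore called was Cacna1s, the L-type pore of skeletal muscle, at a level near 6 (-0.45 ± 0.10, adjusted p = 0.0099). The T-type pore Cacna1g differed by -0.05 ± 0.12 and the L-type pore Cacna1d of nodal cells by -0.13 ± 0.11.

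Among the 14 calcium accessory subunits, 2 fell and 2 rose, where 5.68% of all genes fell and 7.08% rose. Cacna2d1, which brings L-type channels to the membrane, was 13.43, 13.27 and 13.39 in knockout hearts after sham, 12.95, 12.81 and 13.15 after TAC, 13.46, 13.55 and 13.50 in wild type sham hearts and 13.27, 13.09 and 13.21 in wild type TAC hearts. Sham and TAC hearts of each genotype were apart. The differences were -0.40 ± 0.09 in knockout (limma adjusted p = 0.0148) and -0.31 ± 0.09 in wild type hearts (adjusted p = 0.19), and the first was no longer called without knockout sham 1, knockout sham 3 or knockout TAC 2 (adjusted p 0.0566 to 0.0681). The gamma subunit Cacng6 fell by 0.42 ± 0.10 (adjusted p = 0.0198), while Cacng7, a gamma subunit best known from brain, rose by 0.59 ± 0.15 (adjusted p = 0.0273) and the skeletal muscle beta subunit Cacnb1 rose by 0.37 ± 0.11 (adjusted p = 0.0475). Leaving out knockout sham 3, knockout TAC 2 or knockout TAC 3 ended the call of Cacng6 (adjusted p up to 0.087). Knockout sham 1 or 3 or any 1 knockout TAC heart did so for Cacng7 (up to 0.114), and any 1 sham heart, wild type TAC 3 or knockout TAC 2 or 3 for Cacnb1 (up to 0.183). Cacnb2, the main beta subunit of heart muscle, differed by -0.60 ± 0.19 (adjusted p = 0.0584) and passed without wild type TAC 2 (adjusted p = 0.0497) or knockout TAC 1 (adjusted p = 0.0182).

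None of the 3 pacemaker channels was called, where 12.8% of all genes were called in knockout hearts. Hcn4, the main pacemaker channel of the sinus node, was 8.00, 7.48 and 7.68 in knockout hearts after sham and 7.13, 7.00 and 7.36 after TAC. The groups did not overlap, and the difference was -0.56 ± 0.18 (limma adjusted p = 0.073). It passed the threshold without wild type sham heart 1 (adjusted p = 0.0332). Hcn2 differed by -0.27 ± 0.16 and the dim Hcn3 by -0.04 ± 0.08. Over all families, the 92 genes not called in the knockout had differences from -0.60 to 0.56, and 77 of them were under 0.2 in size.

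**Figure D3:**
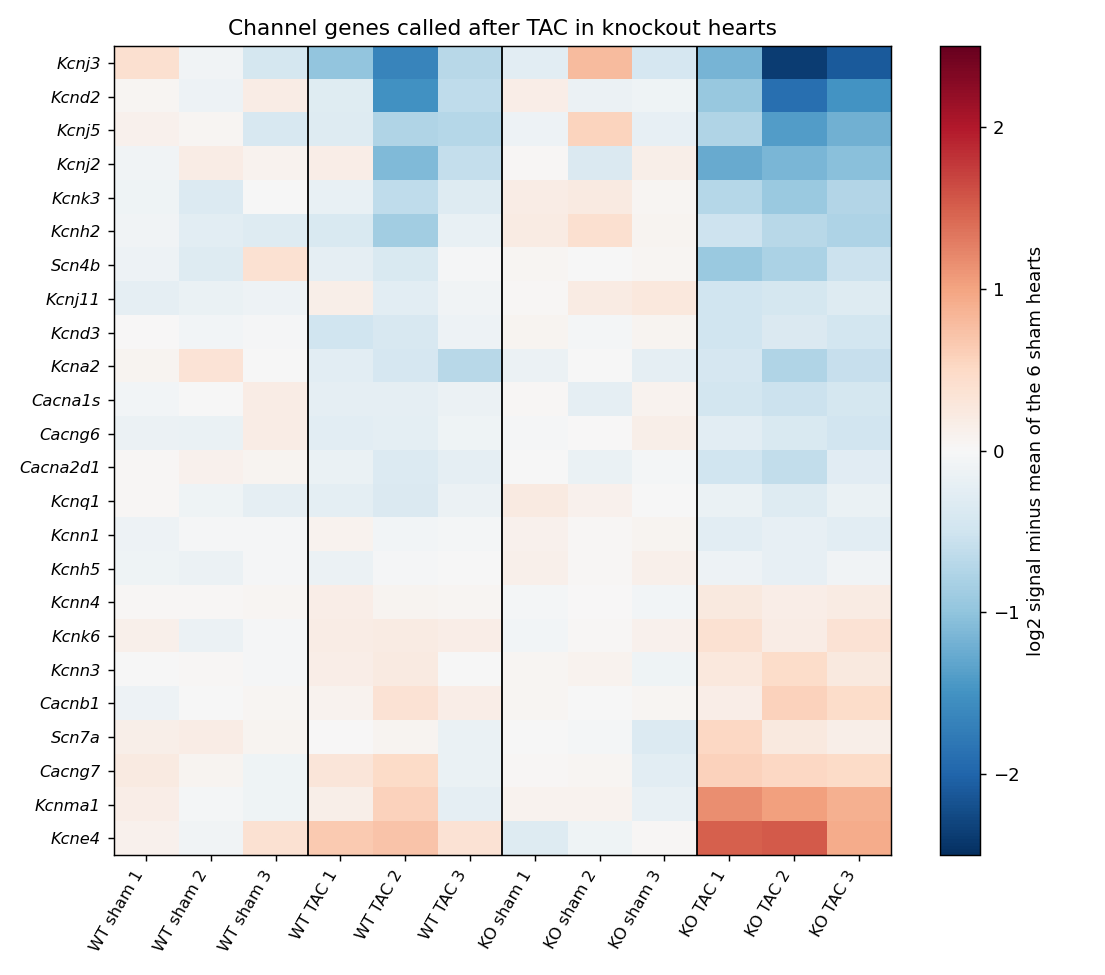
Log2 signal minus the mean of the 6 sham hearts, for the 24 channel genes called after TAC in knockout hearts (rows, by size of the difference) in each of the 12 hearts (columns; WT wild type, KO knockout). The 3 knockout TAC columns have 1 sign in each row relative to their own sham hearts, and wild type TAC heart 2 holds the most shifted wild type TAC value in 11 of the 16 rows that fell and 7 of the 8 that rose.

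In wild type hearts no channel gene passed the threshold after TAC, where limma called 0.178% of all genes. The smallest adjusted p was 0.0906 (Kcna1). Sham and TAC values did not overlap for 7 channel genes that were higher and 10 that were lower, together 14.7% against 16.1% of all genes. After Kcna1 and Kcna2, the smallest p among lower genes belonged to Cacna2d1, Kcnd3 (-0.31 ± 0.09, adjusted p = 0.193) and Kcnd2. Among higher genes they belonged to Kcnk16 (0.24 ± 0.08, adjusted p = 0.268), Kcne4, Kcnk6 (0.20 ± 0.09), Kcnk9 (0.47 ± 0.21) and Cacnb1 (0.23 ± 0.11). Several alternatives each added 1 call: Kcnd3 without wild type TAC heart 3 (adjusted p = 0.041) and Kcna2 with array weights (adjusted p = 0.0477). Kcna1 was added without genes below the median level (adjusted p = 0.04998) and at an adjusted p under 0.1. It was also added with the replicate number as a block, described at the end.

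Genes called in the knockout mostly moved the same way in wild type hearts, without being called there. Of the 16 that fell, 13 were also negative in wild type hearts, and the exceptions were Kcnh5, Kcnj11 and Kcnn1. Of the 8 that rose, 7 were also positive, and the exception was Scn7a. Over all genes called in the knockout, 91.5% of the lower and 94.6% of the higher shared their sign with wild type hearts. Wild type TAC heart 2 held the most shifted wild type TAC value for 11 of the 16 and 7 of the 8, against 66.9% and 65.1% of all genes called in the knockout.

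**Figure D4:**
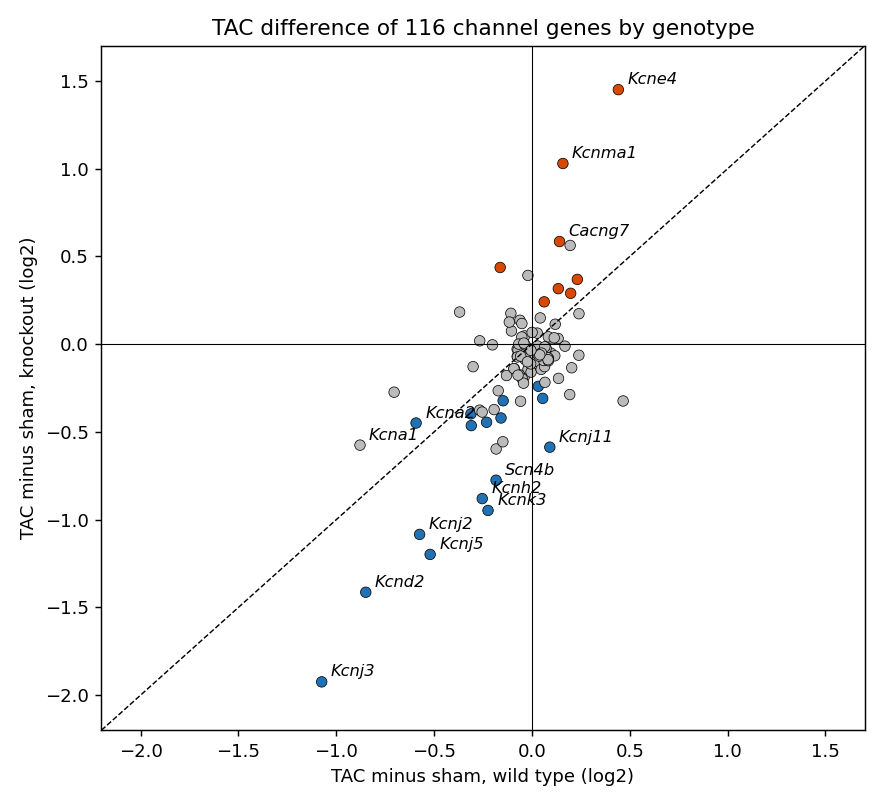
Difference after TAC (log2, TAC minus sham, 3 hearts per group) in wild type hearts (horizontal) and knockout hearts (vertical) for the 116 channel genes; orange and blue mark genes called higher and lower in the knockout, and the dashed line marks equal differences. Kcnj3, Kcnd2, Kcnj5 and Kcnk3 lie below the line and Kcne4 and Kcnma1 above it. Kcna1 and Kcna2 lie at -0.88 and -0.59 on the horizontal axis, where neither was called.

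The difference between the genotypes' TAC effects was tested directly, and no channel gene passed (limma, 0% of all genes called). The smallest adjusted p was 0.259, shared by Kcnj11 (-0.68 ± 0.15), Kcnk3 (-0.72 ± 0.18) and Kcne4 (1.01 ± 0.25). Kcnma1 (0.87 ± 0.25, adjusted p = 0.27), Scn7a (0.60 ± 0.16) and Kcnn1 (-0.36 ± 0.09) came next. With all 12 hearts, no single channel gene's TAC effect differed between the genotypes past the threshold. Without wild type TAC heart 2, Kcnma1 (1.08, adjusted p = 0.0417), Kcnj11 (-0.78, adjusted p = 0.0414) and Kcnk3 (-0.85, adjusted p = 0.0464) passed. The share of all genes that passed without that heart is not given here.

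Knockout and wild type hearts were also compared within each surgery. After TAC no channel gene was called (limma, 0.0111% of all genes called). The groups did not overlap for 6 channel genes that were higher and 16 that were lower in the knockout, 19.0% against 19.2% of all genes. The smallest p belonged to Kcnma1 (0.86 ± 0.17, adjusted p = 0.0631) and Kcne4 (0.74 ± 0.18, adjusted p = 0.0782) among higher genes, and to Kcnn1 (-0.23 ± 0.07, adjusted p = 0.134), Kcnk3 (-0.42 ± 0.12, adjusted p = 0.143), Scn4b (-0.54 ± 0.16, adjusted p = 0.148) and Kcnj11 (-0.34 ± 0.10, adjusted p = 0.15) among lower genes. Kcnma1 passed without genes below the median level (adjusted p = 0.033). Without wild type TAC heart 2, Kcnma1 (1.06, adjusted p = 0.00476), Kcnk3 (-0.54, adjusted p = 0.0356), Kcnj2 (-0.93, adjusted p = 0.0442) and Kcnj11 (-0.44, adjusted p = 0.0474) passed. The share of all genes that passed without that heart is not given here. Without knockout TAC heart 3, Kcne4 alone passed (0.93, adjusted p = 0.0472).

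After sham surgery no channel gene was called either (limma, 0% of all genes). The groups did not overlap for 7 channel genes that were higher and 10 that were lower in the knockout, 14.7% against 12.3% of all genes. The smallest p belonged to Kcnj11 (0.33 ± 0.10), Kcnh2 (0.45 ± 0.16), Kcnh5 (0.19 ± 0.07) and Kcnk3 (0.31 ± 0.12) on the higher side and to Scn3a (-0.20 ± 0.07) and Scn7a (-0.27 ± 0.12) on the lower side, all with adjusted p of 0.891 or more. Kcnj11, Kcnh2, Kcnh5 and Kcnk3 thus had higher knockout sham values and fell after TAC. Kcnq1, which also fell, had a higher knockout sham mean (0.21 ± 0.09), with overlapping sham groups. Both comparisons share the knockout sham hearts.

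With TAC averaged over both genotypes, 24 channel genes were called, 7 higher and 17 lower (20.7%, against 13.6% of all genes, 7.49% higher and 6.12% lower). Of the 44 above the median level 45.5% were called, against 24.7% of all genes above it. Of these 24, 21 were also called in knockout hearts, with Kcna1, Kcnip3 and Kcnj12 added and Kcnh5, Kcnn1 and Scn7a lost. The count was 14 without wild type TAC heart 2 and 15 without knockout TAC heart 2, and the shares of all genes without these hearts are not given here.

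Genes that work with these channels were read from lists beside the members. Of 22 channel regulators 13 were measured, and in knockout hearts after TAC 3 fell and 1 rose. Over all genes 12.8% were called there (7.08% higher and 5.68% lower), and of those above the median level 23.2%. The lists here are short, so their counts are given as values only. Fgf13, which binds sodium channels, fell by 0.99 ± 0.13 (limma adjusted p = 0.00071), the anchoring protein Ank3 by 0.57 ± 0.11 (adjusted p = 0.0068) and Rangrf, a binding partner of the GTPase Ran, by 0.33 ± 0.09 (adjusted p = 0.0328). Gem, a small GTPase that restrains L-type channels, rose by 0.43 ± 0.13 (adjusted p = 0.0472). Of 4 connexins, Gjc1 alone was called (0.26 ± 0.07, adjusted p = 0.033). Of 11 other channels 9 were measured, with the stretch-gated Piezo1 (0.65 ± 0.08, adjusted p = 0.000657), Trpc6 (0.38 ± 0.11, adjusted p = 0.0491) and the ATP-gated P2rx4 (0.33 ± 0.10, adjusted p = 0.0453) higher and the chloride exchanger Clcn3 lower (-0.45 ± 0.08, adjusted p = 0.00299). No gene of these lists was called in wild type hearts, where 0.178% of all genes were. The calls of Gem, P2rx4 and Trpc6 were lost when 11, 10 and 8 of the 12 hearts, respectively, were left out one at a time. That of Rangrf was lost without knockout sham 1 or 3 or knockout TAC 1 or 2 (adjusted p up to 0.125), and that of Gjc1 without knockout sham 1 or 3 or any 1 knockout TAC heart (up to 0.137), while those of Fgf13, Ank3, Piezo1 and Clcn3 held without each heart in turn.

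Markers of other cells moved beside these genes. Fibroblast markers (6 of 7 measured) averaged 10.94 to 11.22 in wild type sham hearts, 11.41 to 12.98 in wild type TAC hearts, 10.92 to 11.13 in knockout hearts after sham and 13.24 to 13.59 after TAC, where 5 of the 6 rose. Wild type TAC heart 2 had the highest wild type value of these markers (12.98). All 4 macrophage markers measured rose in knockout hearts (10.42 to 11.20 after TAC against 9.48 to 9.91 after sham). In wild type hearts these markers averaged 10.15 to 10.30 after TAC against 9.53 to 9.76 after sham. In smooth muscle and pericytes 1 of 5 markers and in endothelium 2 of 6 rose, and in heart muscle 1 of 5 fell. Over all genes 7.08% rose and 5.68% fell in knockout hearts, so these small counts are given as values only. The smooth muscle and pericyte markers averaged 9.14 to 10.00 in the knockout after sham and 10.075 to 10.248 after TAC. In the wild type they averaged 9.41 to 10.12 after sham and 9.34 to 10.04 after TAC. The 6 nerve and Schwann markers measured averaged 4.92 to 5.02 in the knockout after sham and 5.03 after TAC, and 1 of them, Uchl1, rose (0.61 ± 0.15, limma adjusted p = 0.0194). The 6 skeletal muscle markers averaged 8.16 to 8.20 in the knockout after sham and 8.45 to 8.65 after TAC, and 8.10 to 8.22 and 8.40 to 8.68 in the wild type. Of these, Acta1, which heart muscle also expresses, rose in both genotypes (2.97 ± 0.37 in the knockout, adjusted p = 0.000625, and 2.35 ± 0.37 in the wild type, adjusted p = 0.0374), and Ckm fell in the knockout (-0.46 ± 0.10, adjusted p = 0.0127). The part of these markers in the rise of Kcnma1, Kcne4, Scn7a and Cacnb1, or in the falls, was not tested.

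Atrial muscle markers, which bear on Kcnj3, Kcnj5 and Hcn4, varied within every group. The mean of Myl7, Sln and Myl4 was 12.30, 10.88 and 9.86 in wild type sham hearts, 9.29, 10.16 and 10.82 in wild type TAC hearts, 10.89, 13.62 and 10.69 in knockout hearts after sham and 12.04, 10.99 and 9.80 after TAC. Wild type sham heart 1 and knockout sham heart 2 were the highest in these markers of their groups. They also held the highest Kcnj3 (13.49 and 13.89), Kcnj5 (9.46 and 9.89) and Abcc8 (8.57 and 9.06) of their groups. None of the 6 atrial markers was called in knockout hearts. The listed markers outside this mean went both ways between knockout sham and TAC means. Stard10 was lower (10.62 and 9.54), while Dkk3 (9.38 and 10.20) and Bmp10 (6.36 and 8.75) were higher. With the mean of Myl7, Sln and Myl4 as a covariate, Kcnj3 fell by 1.64 (limma adjusted p = 0.00299) and Kcnj5 by 1.06 (adjusted p = 0.00514) in knockout hearts, and the calls of both remained. A covariate that includes the other markers was not tested. Of the 24 calls 18 remained with the covariate, Cacna1c, Kcnj15 and Kcnt2 were added, and Cacnb1, Kcna2, Kcnh5, Kcnk6, Kcnn3 and Kcnq1 were lost.

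**Figure D5:**
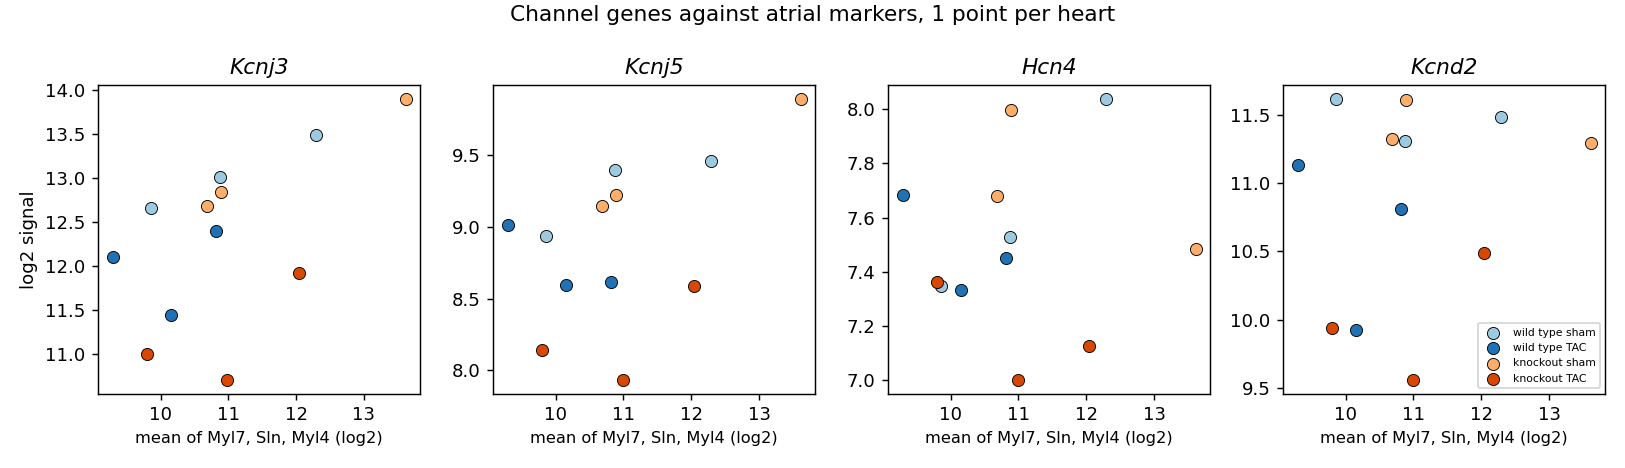
Log2 signal of Kcnj3, Kcnj5, Hcn4 and Kcnd2 (vertical axes) against the mean of the atrial markers Myl7, Sln and Myl4 (horizontal axes), 1 point per heart, coloured by group. Knockout sham heart 2, furthest to the right at 13.62, is the highest point for Kcnj3 (13.89) and Kcnj5 (9.89) but not for Hcn4 (7.48) or Kcnd2 (11.29).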

How the data were processed

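Each of the 12 arrays (Affymetrix Mouse Clariom D, 3 per group) measured total RNA from 1 heart. The authors deposited log2 signals per probe set, made with Affymetrix Expression Console per the submitters' processing notes; its version, the normalization and the genome build are not given in the sources used here, nor are scan dates or other batches. Probe sets with exactly 1 symbol in the platform annotation were kept (27268; 1932 had several and 29595 none), with the brightest probe set per gene, which left 26989 genes. A group mean was fitted to each of the 4 groups over all genes with limma 3.58.1 in R 4.3.3 (lmFit, eBayes), with 2-sided p-values adjusted by the Benjamini-Hochberg method over all genes and called at an adjusted p under 0.05. The script was tested on simulated data. Tables and sequences were prepared in Python 3.11.15.

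The members, lists and tests were chosen with earlier results of these data known. Named were the 12 largest called rises and falls per comparison, the 5 genes of smallest p in a direction where fewer than 5 passed, and a list of heart channels; Kcnip3, Kcnh5, Kcnt2 and Kcnj15 were also named as called genes or genes nearest the threshold, after their values were seen. Deviations from the group means correlated between same-numbered hearts at 0.06 to 0.31 (replicate 1), -0.07 to 0.14 (replicate 2) and 0.07 to 0.19 (replicate 3), so the numbers were not taken to pair the hearts. Alternatives were quantile normalization, leaving out genes below the median level, a trended and robust prior, array weights, a replicate block, every probe set, an atrial covariate, an adjusted p under 0.1, only the arrays compared, and leaving out each array. Leaving out together wild type sham heart 1 and knockout sham heart 2 was chosen after seeing the data.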

Additional observations from a re-analysis of the deposited data

How the results depend on the processing

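Of the 24 calls after TAC in knockout hearts, 12 held under every alternative in which the gene was tested: Kcne4, Kcnma1, Kcnj3, Kcnd2, Kcnj5, Kcnk3, Kcnh2, Scn4b, Kcnj11, Kcnd3, Cacna1s and Kcnn1. Kcne4 and Scn4b have means below the median level, so they were not tested in the alternative that leaves out such genes. The count of 24 ranged from 13 to 25 without single hearts and was 15 without the 2 sham hearts high in atrial markers, an alternative chosen after seeing the data. The averaged count of 24 ranged from 14 to 23 without single hearts and was 15 without those 2. The count of 0 in wild type hearts became 1 without genes below the median level, with array weights, with the replicate block and at an adjusted p under 0.1, and 0 to 1 without single hearts. For knockout against wild type after TAC, the count of 0 became 1 without genes below the median level, 2 at an adjusted p under 0.1 and 0 to 4 without single hearts. The interaction count was 0 to 3 without single hearts and the sham count 0 throughout. Here and below, counts under the alternatives cover channel genes only. The share of all genes called under each alternative is not given, so a changed count is not shown to be particular to channel genes.

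With the replicate number as a block, knockout TAC calls were 29 (23 of the 24 and 6 more), wild type TAC calls 1 (Kcna1, adjusted p = 0.0257) and knockout against wild type after TAC 2 (Kcnma1, adjusted p = 0.0211, and Scn4b, adjusted p = 0.0494). The causes of these changes were not tested.

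Small differences changed sign in wild type hearts: Scn10a (0.0225 with the atrial covariate, 0.0148 without the 2 sham hearts), Cacna1g (0.0406 with array weights) and Hcn4 (0.0516 without the 2 sham hearts). In knockout hearts Kcnj8 became -0.0081 after quantile normalization and -0.0367 with the covariate, and Hcn3 0.0252 after quantile normalization and 0.0121 without the 2 sham hearts. Without single hearts, wild type differences ranged from -0.13 to 0.0148 for Scn10a, -0.12 to 0.019 for Scn2b, -0.33 to 0.0156 for Scn4b, -0.12 to 0.10 for Cacna1g, -0.21 to 0.0916 for Kcna4, -0.13 to 0.0746 for Kcna5, -0.0995 to 0.23 for Kcnj8, -0.016 to 0.19 for Kcnj11, -0.11 to 0.09 for Kcnk1, -0.0491 to 0.35 for Kcnma1 and -0.29 to 0.0516 for Hcn4. Knockout differences ranged from -0.12 to 0.0444 for Cacna1g, -0.0288 to 0.13 for Kcnj8, -0.026 to 0.15 for Kcnj14, -0.0792 to 0.0302 for Kcnk2 and -0.0948 to 0.0121 for Hcn3. Signal limits the dim genes: 36 of the 116 had a mean above the 95th percentile of the background probe sets.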
